A study of Mus musculus with 6 samples.

Results

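Plasma cell secretory and surface genes were examined in CD4+CD25+ T cells of mice, a population enriched for regulatory T cells (Treg), which hold immune responses in check. The cells came from HDAC6 knockout and from wild-type (WT) mice. The set held 10 known plasma cell genes, chosen by their function with the differences between knockout and WT on these arrays already seen. It was represented by every probe set whose platform annotation named 1 of them alone. That rule found 16 probe sets of 9 genes, out of 22626 probe sets and 12393 genes in all. No probe set was named for Mzb1, an endoplasmic reticulum (ER) helper of antibody assembly, so it was not analysed here. The HDAC6 knockout group had 3 arrays and the WT group, labelled C57BL6, had 3, which the design text calls independent samples of magnetically separated cells. HDAC6 is a mostly cytoplasmic deacetylase, and the study asked how its loss alters Treg. Age, the strain behind the knockout, the deleted part of the gene and any pooling of animals were unstated in those sources. The spread between arrays may therefore be partly technical.

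Plasma cells are B lineage cells that secrete antibody at a high rate. The transcription factor XBP1 enlarges their ER, and the genes it switches on bring nascent chains into the ER, fold them, join their disulfide bonds and remove misfolded chains. Syndecan-1 (Sdc1, CD138) and BCMA (Tnfrsf17) are surface proteins used to recognise plasma cells, and the J chain (Jchain) links IgA and IgM subunits into polymers. Several of the ER genes are active in other secreting or stressed cells too, and Xbp1 is expressed in T cells.

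The values are RMA values on the log2 scale, where 1 unit is a 2-fold difference, and they are relative within a probe set. Array medians lay between 6.23 and 6.26 in the knockout and between 6.22 and 6.27 in WT. The Treg factor Foxp3 averaged 10.32 ± 0.12 in the knockout and 10.26 ± 0.061 in WT (SD, n = 3 each), and the sorting marker Il2ra (CD25) averaged 9.44 ± 0.14 in the knockout and 9.43 ± 0.18 in WT. The co-receptor Cd4 averaged 9.93 ± 0.13 in the knockout and 9.72 ± 0.099 in WT. None of these differed past limma's adjusted p threshold of 0.05 (0.853, 0.982 and 0.469 over all genes). Hdac6 averaged 7.68 ± 0.16 in the knockout and 8.39 ± 0.16 in WT, without overlap. Where its probe set lies relative to the deletion is not known here, so it does not check the labels. In a bulk preparation, fewer cells of a type and less RNA per cell cannot be told apart.

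The promoters of the members are shown first, because ER stress is known to act on its target genes through short promoter elements. RefSeq promoter windows on GRCm38.p6, from 250 bases before to 50 bases after a start, were at hand for 7 of the 10 members, 9 windows in all. Each was searched on both strands for the ER stress response element ERSE (CCAAT, then 9 bases of any kind, then CCACG), a known site of ATF6 and XBP1 with the factor NF-Y, for ERSE-II (ATTGG, 1 base of any kind, CCACG), for the unfolded protein response element UPRE (TGACGTGG) and for the XBP1 core ACGTG, which lies within UPRE. Of 32851 promoter windows, 0.119% held ERSE, 0.0365% ERSE-II, 0.676% UPRE and 19.6% the core. Shown are the 250 bases before the start for the members with a match to ERSE or UPRE, and for Jchain as the member most tied to antibody secretion. Capitals mark the matches.
Derl3, chr10:75893148-75893397, + strand: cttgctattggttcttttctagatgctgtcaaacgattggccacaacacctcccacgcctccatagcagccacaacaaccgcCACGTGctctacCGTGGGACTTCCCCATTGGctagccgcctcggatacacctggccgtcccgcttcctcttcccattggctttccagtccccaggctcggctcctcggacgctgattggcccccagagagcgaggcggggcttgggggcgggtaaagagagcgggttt
Creld2, chr15:88819396-88819645, + strand: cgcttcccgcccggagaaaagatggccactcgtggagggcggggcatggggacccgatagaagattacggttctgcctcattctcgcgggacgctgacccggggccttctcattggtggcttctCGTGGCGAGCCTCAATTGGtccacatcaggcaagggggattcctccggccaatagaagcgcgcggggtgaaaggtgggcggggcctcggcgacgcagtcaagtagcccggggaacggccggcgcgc
Txndc5, chr13:38527915-38528164, - strand: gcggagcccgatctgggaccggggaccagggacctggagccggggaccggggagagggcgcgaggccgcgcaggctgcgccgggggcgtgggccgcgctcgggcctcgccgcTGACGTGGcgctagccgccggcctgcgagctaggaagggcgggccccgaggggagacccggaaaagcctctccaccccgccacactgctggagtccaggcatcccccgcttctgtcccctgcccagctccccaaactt
Jchain, chr5:88527898-88528147, - strand: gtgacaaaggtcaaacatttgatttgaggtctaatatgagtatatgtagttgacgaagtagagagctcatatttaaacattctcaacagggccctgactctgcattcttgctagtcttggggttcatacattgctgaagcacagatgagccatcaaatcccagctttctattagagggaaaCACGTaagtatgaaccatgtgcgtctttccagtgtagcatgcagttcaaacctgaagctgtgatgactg

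Derl3 and Creld2 each held 1 ERSE, on the strand opposite to the gene. It ran from position -156 to -138 before the start of Derl3 and from -126 to -108 before that of Creld2. Derl3 also held the core on both strands, from -168 to -163. Of the 3 Txndc5 starts in the table, the one shown held UPRE on the gene's own strand, from -138 to -131, and Jchain held the core alone, on the opposite strand, from -69 to -65. In the windows of Sdc1, Tnfrsf17 and Xbp1 none of these 4 motifs was found. A match is a description of the letters and not evidence that a factor was bound in these cells.

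Among the surface genes, Tnfrsf17 and Sdc1 were higher in every knockout array than in every WT array. Tnfrsf17, the receptor for the survival factors APRIL and BAFF, read 6.48, 5.87 and 7.0 in the knockout, against 4.91, 5.49 and 5.51 in WT. Its lowest knockout array lay 0.37 above its highest WT array. The log2 difference was 1.15 (SE 0.29), or 2.22-fold, the largest among the 9 genes. The WT values lay between the arrays' lower quartile (4.14 to 4.23 in WT) and their median, a dim range where RMA compresses differences.

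Sdc1, a heparan sulfate proteoglycan of plasma cells and of epithelia, had 4 probe sets, which differed in size but not in direction. The brightest read 7.31, 6.97 and 7.93 in the knockout, against 6.78, 6.67 and 6.84 in WT. The knockout arrays spread over 0.96 and the WT arrays over 0.17, and the gap between the groups was 0.14. The difference was 0.64 (SE 0.22) for this probe set and 0.67 (SE 0.20) for the next, against 0.24 and 0.15 for the dimmer pair. Without knockout replicate 3 the brightest differed by 0.38, the lowest value when 1 array was left out.

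The secreted member Jchain was near the top of the measured range in all arrays. It read 13.60, 13.59 and 13.74 in the knockout, against 12.74, 13.20 and 13.26 in WT, on arrays whose highest values were 14.40 to 14.51 in the knockout and 14.42 to 14.45 in WT. The knockout arrays lay within 0.15 of each other, and WT replicate 1 was the lowest array. The difference was 0.58 (SE 0.14), or 1.49-fold. A difference so near the top of the scale can be understated.

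Xbp1 itself, the factor of the secretory programme, was measured by 4 probe sets. The brightest read 11.49, 11.30 and 11.62 in the knockout, against 10.97, 11.17 and 11.07 in WT, without overlap, a difference of 0.40 (SE 0.10) or 1.32-fold. The other probe sets differed by 0.29, 0.41 and 0.17. The groups overlapped in the first and the last of these 3 and not in the other. These arrays do not separate the spliced from the unspliced form of the transcript by anything in the files, so the activity of XBP1 was not measured.

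The ER members with the largest differences were Derl3 and Txndc5. Derl3, a derlin that takes part in removing misfolded proteins from the ER and carries ERSE in the window above, read 8.01, 7.80 and 8.71 in the knockout, against 6.98, 7.59 and 7.49 in WT. The groups were 0.21 apart, and the difference was 0.82 (SE 0.26). Txndc5, a disulfide isomerase of the ER with UPRE at 1 of its starts, read 10.42, 9.97 and 10.76 in the knockout, against 9.50, 9.70 and 9.49 in WT with its brighter probe set. The difference was 0.82 (SE 0.19), or 1.77-fold, and 0.57 (SE 0.17) with the dimmer one, both without overlap. In Txndc5 the WT arrays were close together, within 0.21 and 0.06 by probe set, while the knockout arrays spread over 0.78 and 0.71.

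Manf, Creld2 and Sec11c gave the smaller differences among the ER members. Manf, an ER stress-induced secreted protein, read 10.26, 10.13 and 10.30 in the knockout, against 9.57, 9.92 and 9.87 in WT, with 0.22 between the groups and a difference of 0.45 (SE 0.11). Creld2, a cysteine-rich ER protein induced by ER stress, read 8.69, 8.48 and 8.93 in the knockout, against 8.26, 8.71 and 8.34 in WT. Its groups overlapped, because WT replicate 2 exceeded 2 knockout arrays, and it differed by 0.26 (SE 0.16), or 0.15 without knockout replicate 3 and 0.40 without WT replicate 2. Derl3 and Creld2, which both held ERSE, thus had differences of 0.82 and 0.26 between knockout and WT.

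Sec11c, a catalytic subunit of the signal peptidase that trims secreted proteins, read 10.70, 10.59 and 10.61 in the knockout, against 10.53, 10.62 and 10.42 in WT. The groups overlapped. Its difference of 0.11 (SE 0.08) was the smallest among the 9 genes, and it was 0.06 without WT replicate 3.

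**Figure D1:**
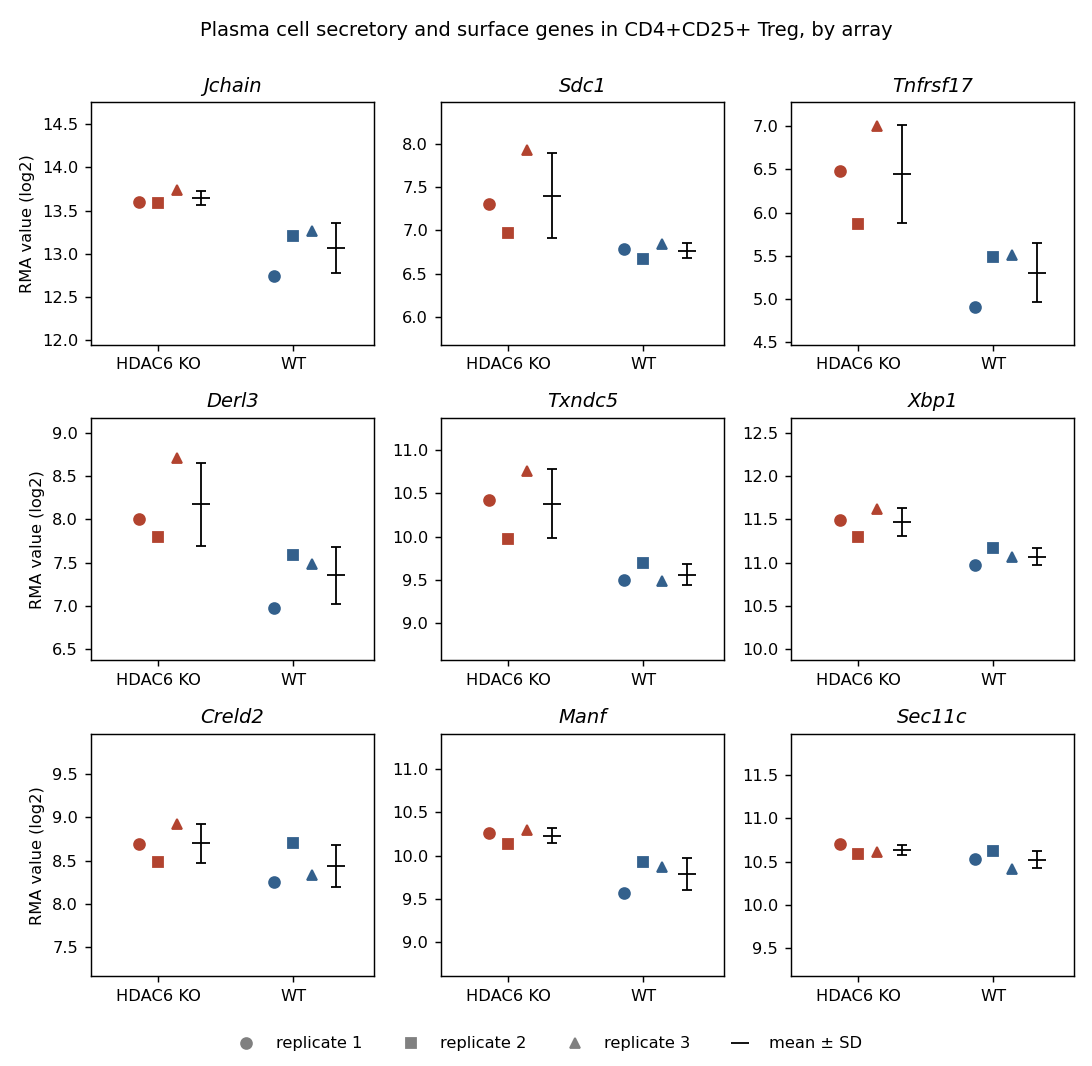
RMA values on the log2 scale (vertical axes, each spanning the same number of log2 units) of the brightest probe set of 9 genes in 3 HDAC6 knockout (HDAC6 KO) and 3 WT arrays, with mean and SD (n = 3) beside them. In 7 of the 9 genes all knockout arrays lie above all WT arrays, while Creld2 and Sec11c overlap.

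Since the genes were chosen with this contrast known, these values are a description and carry no test. All 16 member probe sets had a higher mean in the knockout, as 50.7% of all genes did by their brightest probe set, and in 12 of the 16 the genotypes did not overlap, where 7.68% of all probe sets were higher in the knockout without overlap. By gene the figure was 7 of 9, against 8.28% of all genes. In limma's fit across all probe sets 0 of the 16 passed an adjusted p of 0.05, where 0.194% of all probe sets passed. At an unadjusted p under 0.05 stood 12 of the 16, against 10.6% of all probe sets. The median difference over the 9 genes was 0.58, against 0.00 over all genes. It was 0.41 without knockout replicate 3 and also 0.41 without WT replicate 1.

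The members varied together among arrays of 1 genotype. This is a description without a test, since the genes share the arrays and were chosen with their differences on them known. Knockout replicate 2 was the lowest knockout array for 9 of the 9 genes, by the brightest probe set, and knockout replicate 3 the highest for 8. Over all genes, knockout replicate 2 was the lowest knockout array for 28.6% and knockout replicate 3 the highest for 39.9%. The exception among the members was Sec11c, highest in knockout replicate 1. Knockout replicate 2 also had the lowest knockout median of 4 lists of ER genes. Relative to the WT mean it was at 0.02 for degradation, -0.06 for disulfide genes, -0.05 for chaperones and -0.03 for translocation. ER stress sensors and genes of the ATF4 arm went the other way, at -0.10, 0.08 and 0.06 in knockout replicates 1 to 3, with replicate 2 the highest. Among WT arrays replicate 1 was lowest for 6 genes and replicate 2 highest for 6, against 37.3% and 30.8% of all genes.

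The spread took a different form in different members. Jchain and Manf were tight in the knockout (ranges of 0.15 and 0.17) and wider in WT (0.52 and 0.35), where replicate 1 was low. Sdc1 and Txndc5 were tight in WT and wide in the knockout, where replicate 3 was high. Tnfrsf17 and Derl3 combined both, with ranges of 1.12 and 0.91 in the knockout and 0.60 and 0.61 in WT.

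**Figure D2:**
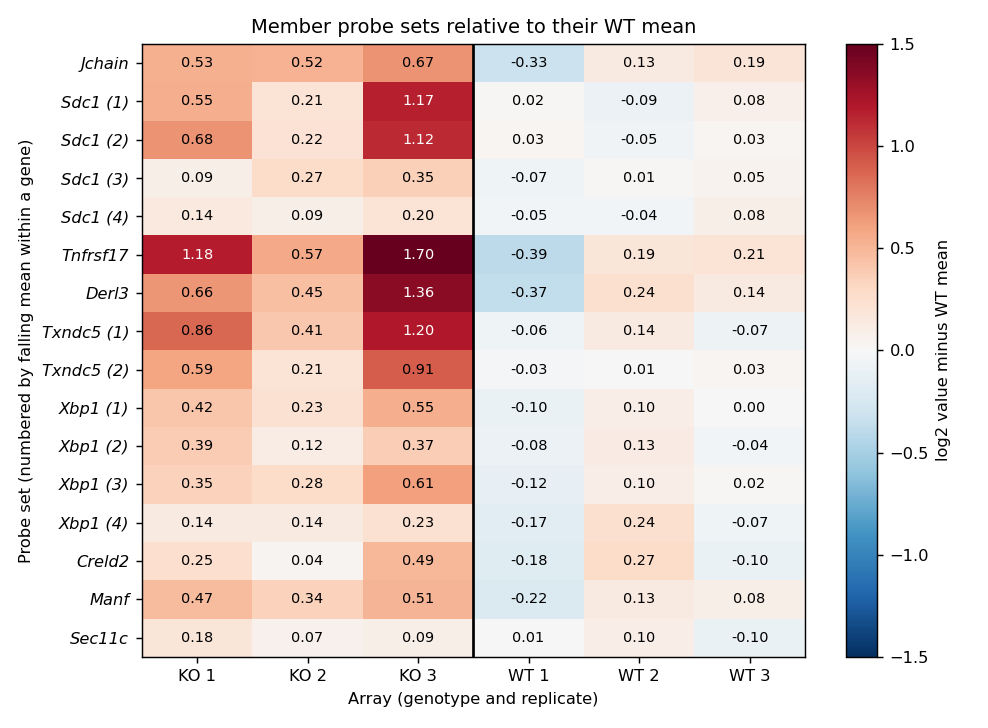
Each of the 16 member probe sets (rows, numbered by falling mean within a gene) as its log2 value minus its own WT mean, in 3 HDAC6 knockout (KO) and 3 WT arrays (columns). Knockout replicate 3 is the highest of the 6 arrays in 13 of the 16 probe sets and WT replicate 1 the lowest in 12.

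Across the 6 arrays Pearson's r between member genes was 0.39 to 0.99 over 36 pairs, with a median of 0.89. After each genotype's mean was taken out, the r of the deviations was above 0 in 33 of the 36 pairs, with a median of 0.75. Xbp1 and Tnfrsf17 were at 0.96 by this measure, and Xbp1 with Txndc5 at 0.94 and with Creld2 at 0.94. Jchain tracked Manf (0.93) more closely than Sdc1 (0.25) or Txndc5 (0.32), and the 3 pairs at or below 0 all involved Sec11c. The correlations rest on 6 arrays that the genes share and are given as a description.

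Other plasma cell genes mostly had a higher mean in the knockout, though none passed the test. Of 17 listed, 16 were measured, of which 15 were higher and 1 lower in the knockout, with a median difference of 0.22. By limma 0 of the 16 passed over all genes, and 7 had an unadjusted p under 0.05, against 11.2% of all genes. The poly(A) polymerase Tent5c was 0.29 higher in the knockout (SE 0.08, limma's adjusted p = 0.225). The chemokine receptor Cxcr4 was 0.80 higher (SE 0.24, adjusted p = 0.289) and the stress-induced Trp53inp1 0.23 higher (SE 0.08, adjusted p = 0.337). Irf4 and Prdm1, the transcription factors that drive plasma cell formation and that effector Treg also use, differed by 0.32 (adjusted p = 0.534) and 0.13 (adjusted p = 0.821), with overlap. Bhlha15 (MIST1), a factor downstream of XBP1 in secretory cells, read 6.49, 6.39 and 6.94 in the knockout, against 5.81, 6.34 and 6.24 in WT, without overlap (difference 0.48, adjusted p = 0.405). Irf4, Prdm1 and Bhlha15 were singled out after their values were seen.

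Lists of the wider ER machinery had medians near 0. Of 15 genes of ER-associated degradation, the step in which Derl3 acts, 11 were higher and 4 lower, with a median of 0.08 and 0 past the threshold. The mannosidase-like Edem1 differed by 0.67 (SE 0.13, adjusted p = 0.139) and Edem2 by 0.26 (adjusted p = 0.233), each without overlap, and the ubiquitin ligase Syvn1 by 0.19 (adjusted p = 0.533). The 2 paralogues of Derl3 differed by 0.12 (Derl2) and -0.05 (Derl1), with overlap. Both were read for comparison with Derl3 and not by their rank. At an unadjusted p under 0.05 were 2 of the 15, against 11.2% of all genes.

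Disulfide isomerases and oxidases, the group of Txndc5, split evenly, with 7 of 14 higher and 7 lower and a median of 0.02. The oxidase genes Ero1b and Ero1a, which recharge the isomerases, were lower in every knockout array, with differences of -0.41 (SE 0.10, limma's adjusted p = 0.181) and -0.22 (SE 0.07, limma's adjusted p = 0.324). Txndc12 differed by -0.17, with overlap. Of the group 0 passed, and 2 had an unadjusted p under 0.05. ER chaperones gave 6 higher and 6 lower of 12, median 0.03, with Hsp90b1 (GRP94) at 0.16, Sdf2l1 at 0.24 and Ppib at -0.09. Of these 0 passed and 0 had an unadjusted p under 0.05 by limma.

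For signal peptidase and translocation genes, the neighbours of Sec11c in function, 9 of 18 were higher and 9 lower, with a median of 0.00 and differences from -0.11 to 0.16. Ssr4 (0.16), Sec61a1 (0.11) and Ssr1 (0.16) had the smallest p, and 0 passed the threshold or an unadjusted p of 0.05. Among ER stress sensors and genes of the ATF4 arm 7 of 13 were higher and 6 lower (median 0.05), 0 passed, and 3 had an unadjusted p under 0.05. These were Nupr1 (0.51), Chac1 (0.30) and the sensor Atf6 (0.37), with adjusted p of 0.324, 0.330 and 0.431.

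Of 7 measured paralogues and binding partners of the members, 5 were higher and 2 lower, with 0 past the threshold and 0 at an unadjusted p under 0.05. They included the BAFF gene Tnfsf13b at 0.28 and the polymeric immunoglobulin receptor Pigr, which carries J chain-containing antibody across epithelia, at -0.10. Sdc2, a paralogue of Sdc1, was at -0.15. Pigr and Sdc2 were dim, with WT means of 3.85 and 4.15 near the arrays' lower quartile (4.14 to 4.23 in WT), where RMA compresses differences.

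Genes that hold ERSE in their promoter, as Derl3 and Creld2 do, were gathered after the values were seen and carry no test. Of 37 such genes with a promoter window, 18 were measured, 2 of them members. Of the other 16, 6 were higher and 10 lower in the knockout, with a median of -0.02 and a range from -0.42 to 0.19. The highest were Syvn1 (0.19, without overlap) and the chaperone gene Hsp90b1 (0.16), and the lowest Acacb (-0.42) and Ero1b (-0.41). The other chaperone genes among them were Hspa5 (0.07), Calr (-0.01), Canx (-0.05) and Dnajc3 (-0.13). Derl3, at 0.82, lay outside the range of these 16 genes and Creld2, at 0.26, just above it.

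**Figure D3:**
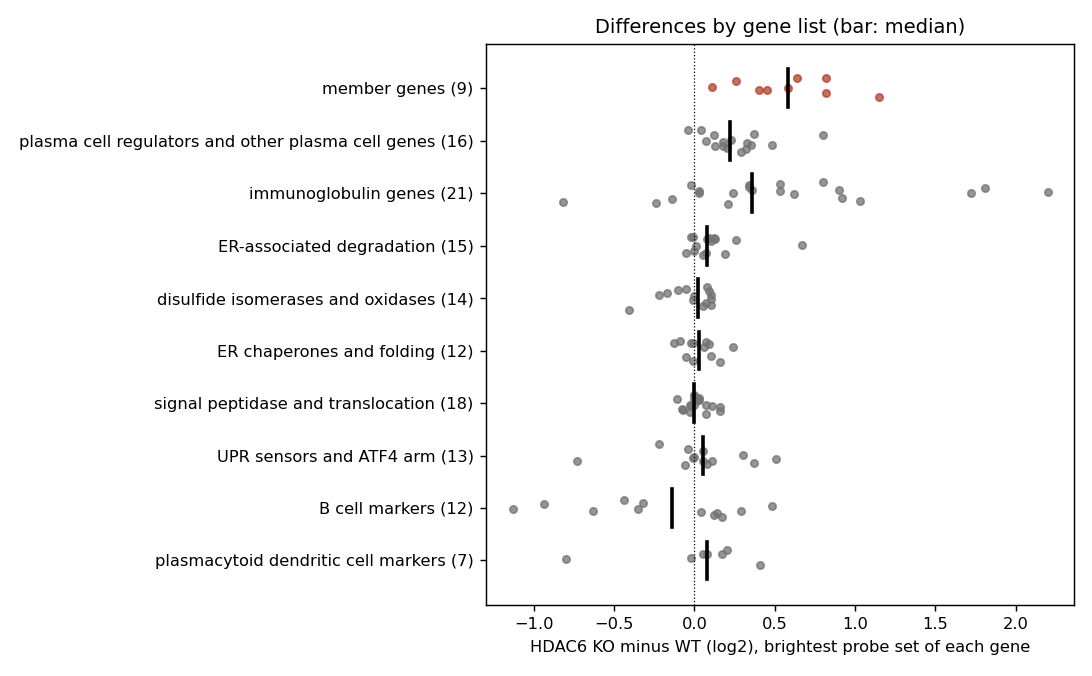
HDAC6 KO minus WT differences on the log2 scale (horizontal axis) for the brightest probe set of each gene, with 1 point a gene, gene lists down the page with their number of measured genes, and a bar at each list's median. The member genes have a median of 0.58 and other plasma cell genes of 0.22, while chaperone and translocation genes lie within -0.13 to 0.24.

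Immunoglobulin genes, the main product of plasma cells, were mostly higher in the knockout but differed among themselves. Of 21 named genes 17 were higher and 4 lower, with a median of 0.36 and a range from -0.82 to 2.20, and 2 rose past the threshold (Igk and Igha), where 0.161% of all genes passed. Without knockout replicate 2 or without WT replicate 2, 0 passed, but over all genes only 3 passed in each case, against 20 with all arrays. The median was 0.56 without knockout replicate 2, 0.59 without WT replicate 2 and 0.66 without WT replicate 3. Over all 44 immunoglobulin probe sets the differences ran from -0.82 to 3.78, with 34 higher and 10 lower. By limma's adjusted p over probe sets 6 rose and 0 fell past the threshold, where 0.194% of all probe sets passed. In 22 of the 44 the knockout was higher without overlap, against 7.68% of all probe sets. On the brightest Igha probe set the knockout arrays read 14.27, 14.27 and 14.36 and the WT arrays 12.18, 12.58 and 12.70. Its difference was 1.81, against 2.79 and 2.28 on the other Igha probe sets. Igk read 11.23, 11.58 and 12.09 in the knockout, against 9.58, 9.41 and 9.31 in WT, so its highest WT array was replicate 1, where most members were lowest. With its brightest probe set Ighm (IgM heavy chain) read 14.35, 14.13 and 14.40 in the knockout, against 14.18, 14.37 and 14.38 in WT. The groups overlapped with a difference of -0.02, near the top of the scale, where a difference can be understated. Over all Ighm probe sets the differences ran from -0.06 to 3.78. The largest came from 12.14, 12.90 and 11.85 in the knockout, against 9.17, 7.14 and 9.25 in WT. Ighm was singled out after its values were seen. Among WT arrays, replicate 3 was the highest for 32 of the 44 immunoglobulin probe sets, whereas it was replicate 2 for 6 of the 9 member genes. The linear level summed over the immunoglobulin genes, which the brightest probe sets dominate, was 67900 to 87200 in the knockout and 41200 to 59100 in WT.

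The B cell markers had no common direction. Of 12 measured B cell markers 6 were higher and 6 lower in the knockout, with a median of -0.14, and 0 passed while 4 had an unadjusted p under 0.05. The median was 0.01 without knockout replicate 1 and -0.26 without knockout replicate 3. Ms4a1, which encodes the B cell surface protein CD20, read 7.40, 8.11 and 7.96 in the knockout, against 9.04, 9.44 and 8.38 in WT, without overlap (difference -1.13, limma's adjusted p = 0.211). The B lineage factor Spib differed by -0.94 (adjusted p = 0.208) and Vpreb3 by 0.48 (adjusted p = 0.263). The summed linear level of the B cell markers was 1490 to 2110 in the knockout and 1910 to 2590 in WT.

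Plasmacytoid dendritic cells, which share Derl3, Jchain and Mzb1 with plasma cells in humans, were followed with 7 measured markers. Of these 5 were higher and 2 lower, with 0 past the threshold, and their summed linear level was 2350 to 2840 in the knockout and 2410 to 2810 in WT. Cox6a2 differed by 0.41 (adjusted p = 0.226), Ccr9 by -0.80 (adjusted p = 0.288) and Bst2, also an interferon target, by 0.20. Of 9 myeloid markers 2 were higher and 7 lower. Their sum was 468 to 843 in the knockout and 638 to 2160 in WT, with WT replicate 2 the highest array. The brightest markers dominate this sum, and in WT replicate 2 they were S100a8 (9.75) and S100a9 (9.55). Cd14, Fcgr3 and Lyz2 differed by -0.19, -0.57 and -0.45. Epithelial markers, followed because epithelia also carry Sdc1, were higher in 2 and lower in 3 of 5 cases, with Epcam at 0.23, Krt19 at 0.11 and Krt8 at -0.06 and a sum of 271 to 357 in the knockout and 223 to 305 in WT. Of the 9 Treg and T cell markers 6 were higher and 3 lower, with Ikzf2 at 0.20 (adjusted p = 0.523) and Ctla4 at 0.16 (adjusted p = 0.617), with a sum of 22400 to 23200 in the knockout and 22700 to 23300 in WT. RMA values have no 0, so absence of a marker could not be read, and the part that other cell types had in the members' differences was not tested.

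**Figure D4:**
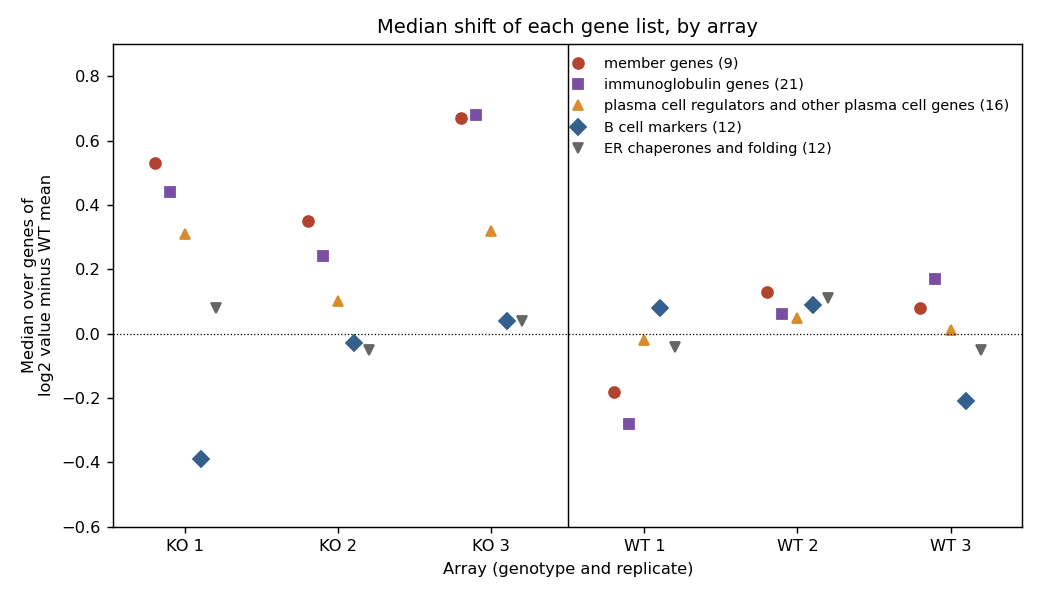
Median over the genes of a list of the log2 value minus the WT mean (vertical axis), in 3 HDAC6 knockout (KO) and 3 WT arrays (horizontal axis), for 5 gene lists. Member and immunoglobulin genes are highest in knockout replicate 3 (0.67 and 0.68) and lowest in WT replicate 1 (-0.18 and -0.28), an order that B cell markers and ER chaperones do not share.

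The array medians set these lists side by side. Relative to the WT mean, the median over the members was 0.53, 0.35 and 0.67 in knockout replicates 1 to 3 and -0.18, 0.13 and 0.08 in the WT replicates. For immunoglobulin genes it was 0.44, 0.24 and 0.68 in the knockout and -0.28, 0.06 and 0.17 in WT. Other plasma cell genes gave 0.31, 0.10 and 0.32 in the knockout and -0.02, 0.05 and 0.01 in WT. B cell markers gave -0.39, -0.03 and 0.04 in the knockout and 0.08, 0.09 and -0.21 in WT, so they were lowest in knockout replicate 1.

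The genes whose pattern over the 6 arrays was most like that of Jchain were sought among 382 genes that ranged over at least 1 log2 unit. The closest was Slpi, a secreted protease inhibitor, with r = 0.984. Slpi read 9.59, 9.12 and 10.21 in the knockout, against 6.54, 7.87 and 8.04 in WT, a difference of 2.16 (SE 0.43). It was followed by the chemokine Cxcl2 (r = 0.972), the lymphocyte transcription factor Bach2 (0.970) and 2 kappa variable genes of immunoglobulin (0.968 each). For Xbp1 the closest of 383 genes were the members Txndc5 (0.986) and Tnfrsf17 (0.984), then Selenom, a selenoprotein of the ER (0.963), Ckap4, an ER membrane protein (0.961), and Slpi (0.959). Selenom read 6.02, 5.89 and 6.68 in the knockout, against 4.99, 5.54 and 5.48 in WT, again highest in knockout replicate 3 and lowest in WT replicate 1. These likenesses rest on 6 arrays, were picked as the highest of 382 and 383, and carry no p. They include the difference between genotypes, which was known when the members were chosen. The rank of members next to Xbp1 is therefore in part set by that choice.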

How the data were processed

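The authors deposited 1 table of log2 values for 6 arrays, which per the submitters' processing notes came from RMA (background correction, quantile normalization and summary over probes), with no version given. The log2 scale was taken from the range of the values, and nothing was normalized further. RMA compresses differences of dim probe sets, those of very bright probe sets can be understated, and precision is limited by the number of arrays. The 64 control probe sets were left out, which left 22626. Symbols came from the platform annotation and were updated by gene ID through the RefSeq table (GRCm38.p6), which held the IDs of 20351 probe sets. Of the probe sets 20380 named 1 gene, 691 several and 1555 none, and the last 2 kinds were not named.

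The comparison of HDAC6 knockout with WT used limma 3.58.1 under R 4.3.3, with lmFit, eBayes and a single genotype term, with two-sided p-values and Benjamini-Hochberg adjustment over all probe sets, or over 12393 genes with the brightest probe set of each. Adjusted p-values are over genes unless probe sets are named. The fit was tested on simulated data with known changes. The members, the lists and the rule for named genes were chosen with earlier results of these data known. Named were every member probe set, from each pathway or marker list its 3 smallest p-values and any gene past the threshold, Foxp3, Il2ra and Cd4, Hdac6, immunoglobulin probe sets by range, and the 5 genes most like Jchain and Xbp1. Outside this rule, Irf4, Prdm1, Bhlha15, Derl1, Derl2, Igha, Igk, Ighm, S100a8, S100a9 and the ERSE genes were named after their values were seen. Detection calls, slides and scan dates were not analysed here, so batches were not tested. The replicate numbers in the titles were not said to pair the samples, so the main fit used no pairing. The correlation of same-numbered deviations from the genotype means was 0.220, -0.094 and 0.103. That of differently numbered ones was -0.221 to 0.128. With so few arrays these values cannot settle whether the samples were paired. The alternatives comprised quantile normalization, a replicate block, median centring, trend and robust settings, filters on dim probe sets, the mean over a gene's probe sets, a threshold of 0.1 and leaving out each array. Plotting used Python 3.11.15 with matplotlib 3.10.9.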

Additional observations from a re-analysis of the deposited data

How the results depend on the processing

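All 9 member genes kept a positive difference under every alternative that applied, 116 values in all, and 0 member probe sets passed under any of the 13 alternatives that test probe sets. The filter at a mean log2 value of at least 6 kept 11 of the 16. The median over the members was 0.58 and ranged from 0.41 to 0.68 when 1 array was left out. Over all probe sets 44 passed, 27 with the replicate block, 147 with trend and robust settings, 121 at a threshold of 0.1, and 5 to 51 when 1 array was left out. Over genes 20 passed, 83 with trend and robust settings, 34 at a mean of at least 6, 71 at a threshold of 0.1, and 3 to 27 when 1 array was left out. The median of the B cell markers was -0.32 and that of the immunoglobulin genes 0.53 at a mean of at least 6. Of the immunoglobulin genes 2 passed, and 0 to 2 when 1 array was left out. The median of the myeloid markers was -0.51 among the upper 60% of probe sets by mean and -0.59 at a mean of at least 6, where fewer genes were left. That of the epithelial markers was 0.23 in both, which is the value of Epcam alone, since the other epithelial markers were dimmer. Leaving out 1 array gave medians of -0.04 to 0.09 for epithelial markers and -0.02 to 0.04 for translocation genes. Hdac6 passed with trend and robust settings alone (adjusted p = 0.0247). The cause of these shifts was not tested. Dim probe sets such as those of Tnfrsf17 limit what the arrays can show.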
